A study of Danio rerio with 14 samples.

Results

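Whole eyes of wild-type AB zebrafish larvae were compared at 5 dpf (days post fertilization) between 2 groups. The PTU group had been kept in 350 mg/L PTU (propylthiouracil, which blocks the synthesis of thyroid hormone) from the first hours after fertilization until sampling, and the control group had been kept without it. Each group was represented by 3 RNA extracts, and every extract pooled the eyes of 10 larvae. Of the 14 arrays of the series, 6 carried a PTU extract of 5 dpf in 1 of their 2 dye channels and a control extract of 5 dpf in the other, and these 6 arrays were chosen by the labels of their channels. The 6 extracts formed a closed ring on these arrays, so that each was labelled once with Cy5 and once with Cy3. The remaining arrays carried eyes sampled at 8 dpf, after 3 days in clean water, or linked the ages. All larvae came from 1 strain and 1 PTU concentration was used. The eyes had been dissected but not sorted, so all cell types of the eye and any tissue attached to it contributed RNA, and in such bulk samples fewer cells of a type and less RNA per cell cannot be told apart.

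The zebrafish eye at this age is a working organ. Photoreceptors hold light-sensitive opsins in an outer segment, and light is turned into an electrical signal through transducin, a cyclic GMP phosphodiesterase (PDE6) and channels gated by cyclic GMP. The retinal pigment epithelium behind them regenerates the chromophore of the opsins in the retinoid cycle and holds melanin. The lens is packed with crystallins, which are stable, abundant proteins. Thyroid hormone acts through nuclear receptors that bind DNA with or without the hormone, and it is known to influence which opsins cones make and when larval tissues mature.

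All values are log2 ratios. A fold change is the level in PTU eyes over the level in control eyes, so that a log2 fold change of 1 is a doubling, and ± is its standard error from a linear model over all 14 arrays. Levels of single extracts are given on the log2 scale relative to the mean of the 6 extracts of 5 dpf, always for extracts 1, 2 and 3 in that order. The ratios had been normalized within each array, so a change shared by all genes would not be seen. Turned to PTU over control, the 15 pairs of the 6 arrays correlated across the 16913 probes with a median r of 0.749 (0.595 to 0.833). The 9 pairs that shared no extract had a median of 0.754, and probes are not independent replicates in these values. Of 53 genes listed as markers of cell types, 46 were measured, among them markers of every retinal cell class, the lens and the pigment epithelium. The markers rho, arr3a, lhx1a, cx52.6, atoh7, csf1ra and mpx had no probe assigned here.

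A large part of the measured genes differed between PTU and control eyes. At an adjusted p under 0.05, 2046 of 8445 genes rose (24.2% of the genes tested) and 1922 fell (22.8%), and the median over all genes was 0.00. Past a log2 fold change of 0.75 in addition, which is 1.68-fold, 306 genes rose (3.62%) and 424 fell (5.02%). Counted by transcript, as probes, 666 of 16913 were higher (3.94%) and 830 were lower (4.91%) past both limits. All 3 PTU extracts lay above all 3 control extracts for 2267 genes (26.8%) and below them for 2124 genes (25.2%). Among the genes past the limit of 0.75, 296 of the 306 that rose and 409 of the 424 that fell had no overlap between the groups. These genes were selected by p and fold change in the same extracts, so their lack of overlap is not separate evidence. Falls were more often large, as 58 genes fell by more than 2 on the log2 scale and 22 rose by more. The log2 fold changes spanned -4.94 for pde6ha to 5.05 for jac9. Another large rise, of 3.14 ± 0.08, was that of clu (adjusted p = 2.96e-12). Leaving out PTU extract 1, which lay on 4 arrays, left 1317 genes that rose.

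**Figure D1:**
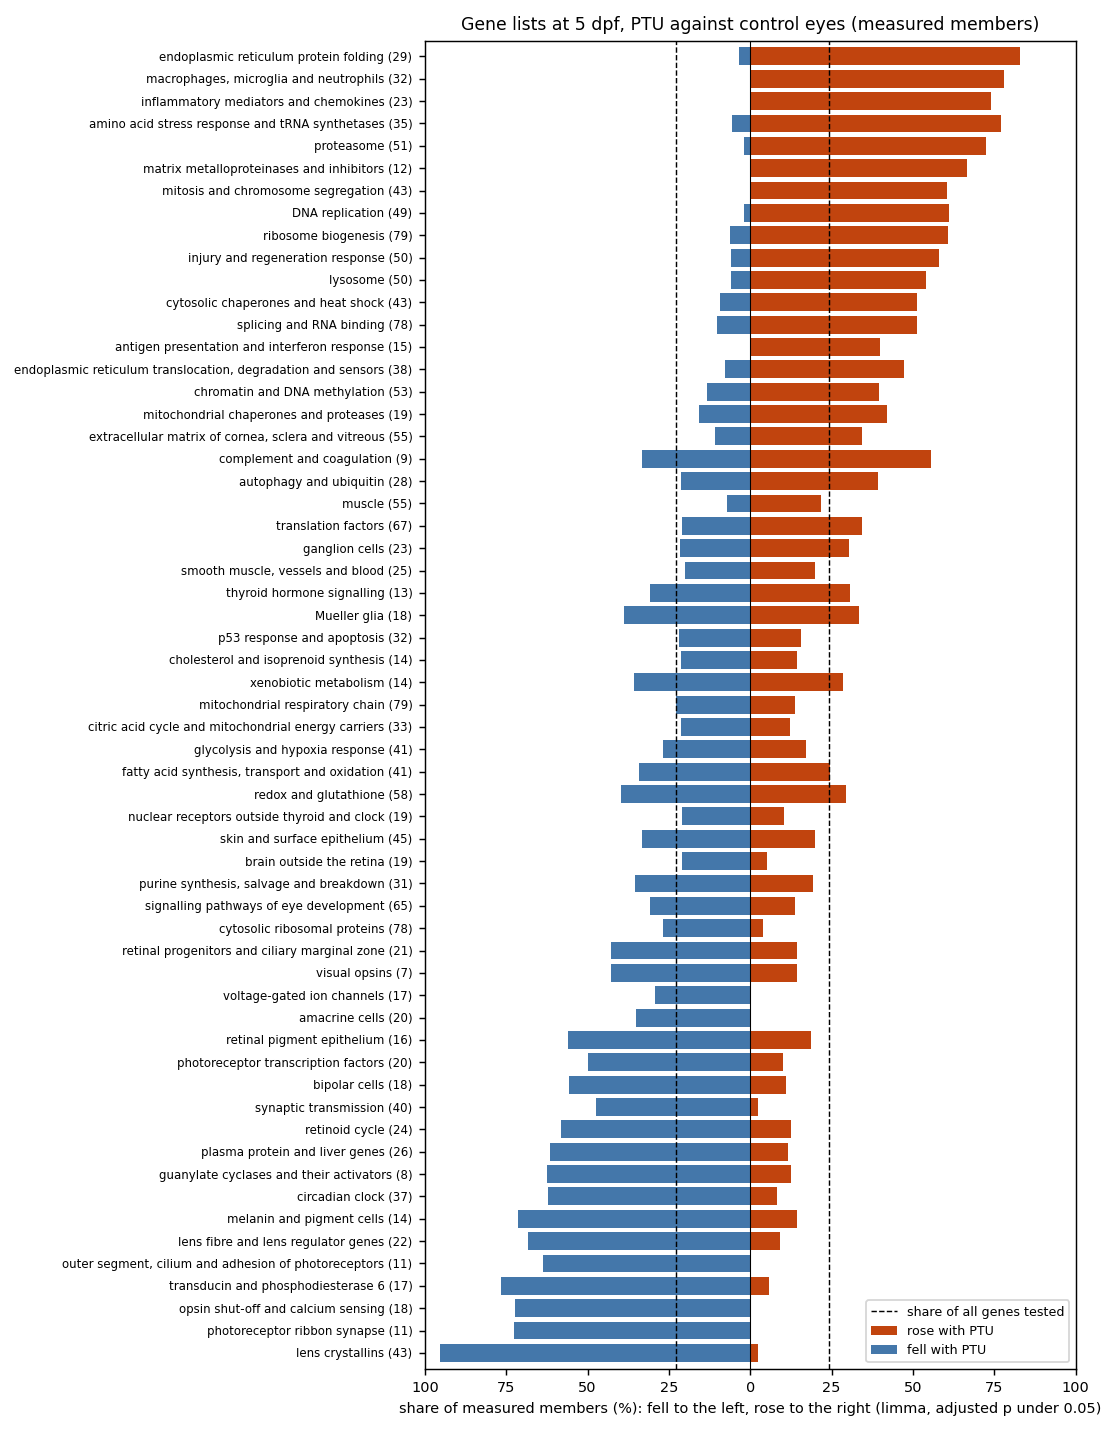
Share of measured genes in each gene list with 7 or more measured members (rows, number in brackets) that rose (right) or fell (left) in PTU eyes against control eyes at 5 dpf at an adjusted p under 0.05, in percent, with dashed lines at the shares over all genes (24.2% rose, 22.8% fell). Crystallins, phototransduction and clock genes lie mostly on the falling side, and genes of protein folding, immune cells, the proteasome and DNA replication mostly on the rising side.

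Some of the largest falls were in the phototransduction cascade of cones. Of 17 measured genes of transducin and PDE6, 13 fell and 1 rose, with a median log2 fold change of -0.96. pde6ha, which encodes an inhibitory PDE6 subunit in cones, had levels of -2.10, -2.87 and -2.46 in the PTU extracts, against 2.59, 1.90 and 2.95 in the control extracts. No PTU extract came near a control extract, and the difference was -4.94 ± 0.29 (adjusted p = 8.01e-09). gngt2a and gngt2b, which encode gamma subunits of cone transducin, fell by 2.25 ± 0.18 and 1.84 ± 0.18 on the log2 scale (adjusted p = 1.81e-07 and 9.06e-07). gnat2, the alpha subunit of cone transducin, had levels of -0.64, -0.89 and -1.15 in the PTU extracts, against 1.06, 0.59 and 1.04 in the control extracts. It fell by 1.77 ± 0.15 (adjusted p = 3.06e-07) and the groups did not overlap. pde6c, a PDE6 subunit taken as a marker of cones, fell by 1.57 ± 0.17 (adjusted p = 2.51e-06). The rod genes gnat1 and pde6a fell as well, by 0.93 ± 0.22 and 0.80 ± 0.11 (adjusted p = 0.00302 and 2.21e-05), and for both of them control extract 2 was the lowest control, at 0.01. gnb1b, a beta subunit that many cells use, was the only member that rose (0.43 ± 0.07, adjusted p = 0.000164), and its paralogue gnb1a gave -0.05 ± 0.08. Of the other rod markers measured, pde6b, a PDE6 subunit, gave -0.30 ± 0.18 (adjusted p = 0.182), and saga, a rod arrestin counted with the genes of opsin shut-off, fell by 0.55 ± 0.12 (adjusted p = 0.00137), a call lost without control extract 1. gnat1 and pde6a were taken as markers of rods too, and gnb1b was chosen after its value was seen.

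Genes that reset the cascade after light fell to a similar extent. Of 18 measured genes of opsin shut-off and calcium sensing, 13 fell and none rose at an adjusted p under 0.05, with a median of -1.10. grk1b and grk7a encode kinases that phosphorylate activated opsin. grk7a had levels of -1.13, -1.37 and -1.89 in the PTU extracts, against 1.67, 1.37 and 1.35 in the control extracts, and fell by 2.91 ± 0.19 (adjusted p = 1.76e-08). grk1b fell by 2.89 ± 0.17 (adjusted p = 9.16e-09). The recoverins rcvrn2 and rcvrn3, which restrain these kinases when calcium is high, fell by 2.59 ± 0.22 and 2.09 ± 0.15 (adjusted p = 2.12e-07 and 4.68e-08). unc119a2, of a family that carries transducin, fell by 1.73 ± 0.12 (adjusted p = 4.08e-08), whereas pdcl, a phosducin-like gene, gave 0.01 ± 0.12 with overlapping groups. Of 8 guanylate cyclases and their calcium-dependent activators, 5 fell and 1 rose (median -0.94). guca1c had levels of -1.33, -1.72 and -2.34 in the PTU extracts, against 1.96, 1.54 and 1.88 in the control extracts, a difference of -3.55 ± 0.21 (adjusted p = 9.23e-09). guca1g and guca1b fell by 2.21 ± 0.14 and 0.96 ± 0.11 (adjusted p = 1.24e-08 and 6.97e-06). guca1aa, chosen after its value was seen as the only member that rose, gave 0.31 ± 0.09 (adjusted p = 0.00862), and without PTU extract 1 it did not pass and no member rose. The same held when the model was fitted to least-squares levels of the extracts. slc24a2, an exchanger that clears calcium from cones, fell by 0.98 ± 0.17 (adjusted p = 0.000276).

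The visual opsins did not move together. Of 7 measured opsins, 3 fell and 1 rose (42.9% and 14.3%, beside 22.8% and 24.2% of all genes), with a median of -0.22. The ultraviolet opsin opn1sw1 had levels of -1.02, -1.25 and -1.27 in the PTU extracts, against 1.69, 0.69 and 1.17 in the control extracts. All PTU extracts lay far below all control extracts, and it fell by 2.33 ± 0.21 (adjusted p = 4.52e-07). rhol, a rhodopsin-like gene, fell by 0.92 ± 0.10 (adjusted p = 3.1e-06). The red opsin opn1lw2 had levels of -0.15, -0.46 and -0.22 in the PTU extracts, against 0.31, -0.08 and 0.60 in the control extracts. PTU extract 1 and control extract 2 lay next to each other without overlap of the groups, and it fell by 0.51 ± 0.14 (adjusted p = 0.00889). However, opn1lw2 did not pass without control extract 1 or 3 or PTU extract 3. It also did not pass with its most variable probe in place of the mean of its probes. The blue opsin opn1sw2 and the green opsin opn1mw1 gave -0.16 ± 0.15 and -0.22 ± 0.22 with overlapping groups (adjusted p = 0.426 and 0.418). The green opsin opn1mw2 rose by 0.47 ± 0.18 (adjusted p = 0.0498), with levels of 0.37, 0.15 and 0.09 in the PTU extracts and -0.15, -0.60 and 0.14 in the control extracts. These groups overlapped, and opn1mw2 failed the threshold, so that no opsin rose, without any 1 of 8 extracts (control 1 or 2 and PTU 1 or 2 of 5 dpf, control 1 or 3 and PTU 2 or 3 of 8 dpf). exorh, an opsin of the pineal organ and the remaining member, gave 0.48 ± 0.45 (adjusted p = 0.405). The green and red opsins have close paralogues, and whether their probes tell the copies apart was not tested. opn1mw1 was taken as a marker of cones, and exorh was chosen after its value was seen.

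Genes of photoreceptor structure and identity mostly fell too, with medians nearer to 0. Of 11 genes of the outer segment, cilium and adhesion, 7 fell and none rose (median -0.57), led by prph2b, which shapes the rims of outer segment discs, with -1.47 ± 0.12 (adjusted p = 1.44e-07). kcnv2b, a potassium channel subunit of photoreceptors, and rom1a, a partner of peripherin, fell by 1.00 ± 0.10 and 0.62 ± 0.09 (adjusted p = 1.06e-06 and 4.89e-05). elovl4b, which makes very long fatty acids, gave 0.13 ± 0.14. Among 20 photoreceptor transcription factors, 10 fell and 2 rose (50% and 10%, beside 22.8% and 24.2% of all genes, median -0.16). The homeobox genes rx1 and rx2 fell by 1.06 ± 0.08 and 1.06 ± 0.11 (adjusted p = 1.24e-07 and 1.66e-06) and foxq2 by 0.68 ± 0.09 (adjusted p = 1.71e-05). prdm1a, a repressor known in mouse to stabilize the photoreceptor fate, had levels of 0.55, 0.40 and 0.52 in the PTU extracts, against -0.41, -0.63 and -0.44 in the control extracts. It rose by 0.97 ± 0.06 (adjusted p = 2.48e-08), and the groups were wide apart. At the photoreceptor ribbon synapse, 8 of 11 measured genes fell and none rose (median -0.31), and 5 fell without control extract 1. cplx4c, a complexin, and lrit1a, a synaptic adhesion protein, fell by 0.82 ± 0.12 and 0.85 ± 0.12 (adjusted p = 5.65e-05 and 3.36e-05). slc17a7a, a vesicular glutamate transporter, fell by 0.44 ± 0.07 (adjusted p = 0.000134), and synj1, a phosphatase of synaptic membranes, gave 0.00 ± 0.07.

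**Figure D2:**
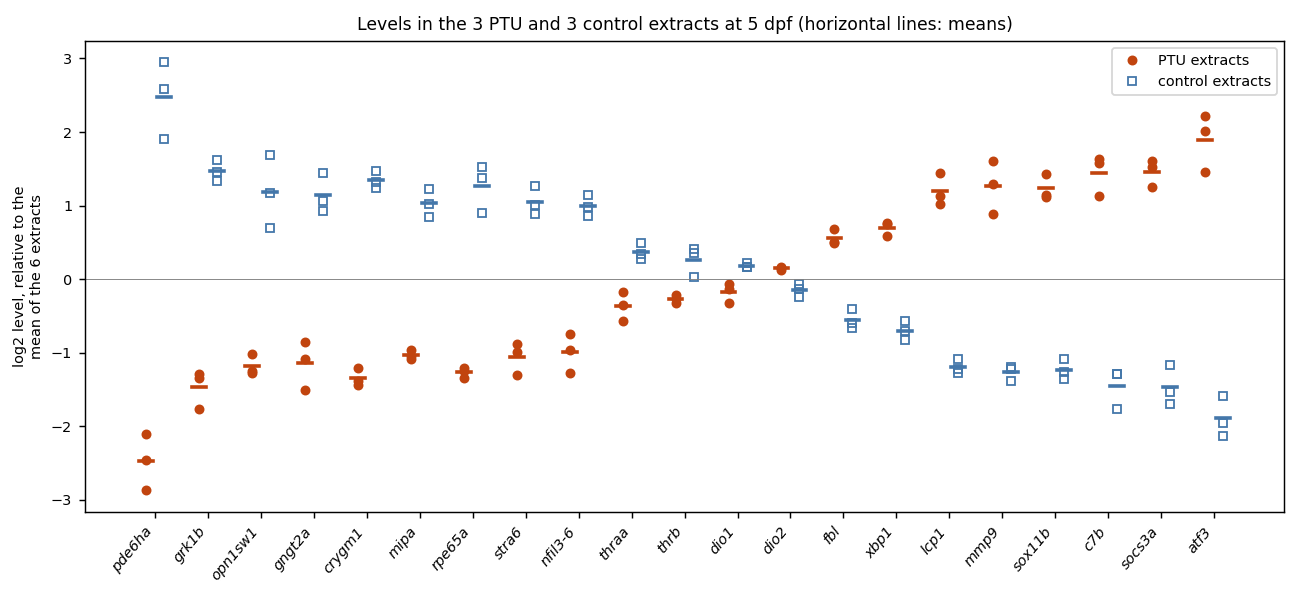
Levels of selected genes in the 3 PTU extracts and the 3 control extracts of 5 dpf (points, log2 relative to the mean of the 6 extracts), with the mean of each group as a line. For pde6ha the PTU extracts lie between -2.87 and -2.10 and the control extracts between 1.90 and 2.95, and for atf3 the PTU extracts lie between 1.45 and 2.22 and the control extracts between -2.13 and -1.59.

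Crystallins had the highest share of falls among the lists plotted. Of 43 measured crystallins, 41 fell, 1 rose and 1 had no call, and the median was -2.04. In 42 of the 43 all 3 PTU extracts lay below all 3 control extracts, against 25.2% of all genes. Averaged over the list, levels were -0.77, -1.28 and -0.84 in the PTU extracts, against 1.07, 0.76 and 1.07 in the control extracts, and the median of the list over single arrays ran from -2.85 to -1.64. cryaa, the small heat shock protein of the lens, had levels of -1.24, -1.07 and -0.84 in the PTU extracts, against 1.42, 0.96 and 0.76 in the control extracts. It fell by 2.13 ± 0.11 (adjusted p = 2.04e-09). crygm1 and crygm3, of the gamma M class found in aquatic animals, fell by 2.69 ± 0.10 and 2.71 ± 0.25 (adjusted p = 9.31e-11 and 6.63e-07). cryba1l2, a beta crystallin, and crygn1 fell by 1.88 ± 0.10 and 1.81 ± 0.08 (adjusted p = 2.04e-09 and 4.5e-10). crygs2, chosen after its value was seen as the only member that rose, gave 0.27 ± 0.08 (adjusted p = 0.011). Its PTU extract 2, at -0.07, lay among the control extracts, and it did not pass without PTU extract 1 or 3. Nor did it pass when the model was fitted to least-squares levels of the extracts. crygs4 gave -0.21 ± 0.09 (adjusted p = 0.0653) and passed without control extract 1 or 2 or PTU extract 1 of 8 dpf. Many gamma crystallins are close copies, and whether their probes tell them apart was not tested, so the 43 are not independent measurements.

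Other genes of the lens fibre fell with the crystallins. Of 22 measured lens fibre and lens regulator genes, 15 fell and 2 rose, with a median of -0.70. mipa, a water channel of fibre cells, had levels of -1.05, -1.08 and -0.96 in the PTU extracts, against 0.85, 1.02 and 1.22 in the control extracts. This was a fall of 2.05 ± 0.08 (adjusted p = 9.31e-11) with tight groups. The fibre membrane proteins lim2.4 and lim2.3 fell by 2.29 ± 0.15 and 1.78 ± 0.12 (adjusted p = 2.54e-08 and 3.89e-08). lim2.1, taken as a marker of the lens, fell by 1.88 ± 0.14 (adjusted p = 6.75e-08). prox1a, a transcription factor of fibre differentiation and of horizontal cells, gave 0.06 ± 0.20 with overlapping groups (adjusted p = 0.823).

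Some genes of the retinoid cycle and the pigment epithelium also fell by large amounts. Of 24 measured retinoid cycle genes, 14 fell and 3 rose, with a median of -0.26, and 5 rose without PTU extract 1 of 8 dpf. rpe65a, the isomerase of the cycle, had levels of -1.21, -1.34 and -1.25 in the PTU extracts, against 1.53, 0.90 and 1.37 in the control extracts. It fell by 2.56 ± 0.12 (adjusted p = 7.42e-10), and its 3 PTU extracts were nearly equal. rlbp1b, a carrier of visual chromophore, fell by 2.73 ± 0.24, and rgrb, a light-driven isomerase, by 2.22 ± 0.10 (adjusted p = 3.06e-07 and 6.04e-10). rbp3, which shuttles retinoids between cells, fell by 2.13 ± 0.14, and stra6, which takes up retinol, gave -2.10 ± 0.11 (adjusted p = 2.54e-08 and 1.58e-09). rdh5, a retinol dehydrogenase of the pigment epithelium, fell by 2.12 ± 0.18 (adjusted p = 2.49e-07), whereas rdh8b, a dehydrogenase of photoreceptors, gave -0.02 ± 0.09. Of 16 pigment epithelium genes, which include 5 of those just named, 9 fell and 3 rose (median -0.68).

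Pigment genes fell in most cases, with exceptions. Of 14 measured genes of melanin and pigment cells, 10 fell and 2 rose (median -0.56). pnp4a, a purine gene used as a marker of reflecting iridophores, had levels of -0.45, -0.71 and -0.92 in the PTU extracts, against 0.81, 0.54 and 0.72 in the control extracts, and fell by 1.38 ± 0.09 (adjusted p = 1.71e-08). zgc:91968 fell by 1.18 ± 0.10 (adjusted p = 2.3e-07). trpm1b, an ion channel of melanocytes and of bipolar cells, fell by 0.54 ± 0.07 (adjusted p = 1.74e-05). The members that rose were rab32a, which brings enzymes to melanosomes, with 0.64 ± 0.07 (adjusted p = 2.06e-06), and tyrp1b, a melanin enzyme taken as a marker of the pigment epithelium, with 0.47 ± 0.14 (adjusted p = 0.0127). tyrp1b did not pass without control extract 2 or PTU extract 2, which left 1 member that rose. The melanin gene dct and the melanosome gene pmela, markers of the pigment epithelium as well, fell by 0.62 ± 0.12 and 0.47 ± 0.09 (adjusted p = 0.000438 and 0.000628). pts, of the pathway to a cofactor of pigment synthesis, gave 0.05 ± 0.09.

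In the inner retina, genes of bipolar and amacrine cells fell more often than they rose. Of 18 bipolar cell genes, 10 fell and 2 rose (55.6% and 11.1%, beside 22.8% and 24.2% of all genes, median -0.26). But 6 fell without control extract 3, and 1 rose without any 1 of the 8 extracts named above for opn1mw2. cabp5a, a calcium-binding protein of bipolar cells, had levels of 1.55, 0.97 and 0.54 in the PTU extracts, against -0.89, -1.85 and -0.30 in the control extracts. The extracts of each group were spread widely without overlap, and the rise was 2.08 ± 0.24 (adjusted p = 5.23e-06). Its paralogue cabp5b fell by 1.16 ± 0.14 (adjusted p = 9.07e-06). grm6b, the glutamate receptor of ON bipolar cells, fell by 0.46 ± 0.10 (adjusted p = 0.00155), fezf2, a transcription factor of bipolar cells in mouse, by 0.40 ± 0.08 (adjusted p = 0.000819), and vsx1 gave -0.20 ± 0.09 (adjusted p = 0.0968) and passed without control extract 2. Among 20 amacrine cell genes 7 fell and none rose (35% and 0%, beside 22.8% and 24.2% of all genes, median -0.15). Only 4, 3 and 4 fell without control extract 1, PTU extract 1 and PTU extract 2. Of the 4 amacrine cell markers measured, gad1b fell by 0.55 ± 0.19 (adjusted p = 0.0239). The others, tfap2a, slc6a9 and slc32a1, gave -0.14 ± 0.09, 0.03 ± 0.11 and -0.12 ± 0.07 with no call (adjusted p = 0.207, 0.826 and 0.173). Of the 4 horizontal cell genes measured, gja9b, a gap junction protein, fell by 0.41 ± 0.07 (adjusted p = 0.000146), and onecut1, a transcription factor, rose by 0.34 ± 0.10 (adjusted p = 0.0143). The call of onecut1 was lost without control extract 1 or 3 or PTU extract 3, and when the model was fitted to least-squares levels of the extracts. cabp5a, cabp5b, grm6b and vsx1 were the 4 markers of bipolar cells, so 1 rose, 2 fell and 1 had no call.

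Of 23 ganglion cell genes measured, 7 rose and 5 fell (30.4% and 21.7%, beside 24.2% and 22.8% of all genes), with a median of 0.09. The transcription factors isl2b and pou4f1 fell by 0.97 ± 0.09 and 0.62 ± 0.06 (adjusted p = 4.17e-07 and 1.07e-06), and rbpms2b, an RNA-binding protein of ganglion cells, fell by 1.12 ± 0.10 (adjusted p = 5.38e-07). pou4f2, a relative of pou4f1, gave -0.25 ± 0.12 (adjusted p = 0.107). Of the 3 markers measured, isl2b and rbpms2b thus fell and pou4f2 had no call. sncga, a synuclein of ganglion cell axons, rose by 0.83 ± 0.07 (adjusted p = 3.9e-07), and uchl1, a neuronal enzyme of ubiquitin turnover, gave -0.04 ± 0.11. Of 18 Mueller glia genes 6 rose and 7 fell (33.3% and 38.9%, beside 24.2% and 22.8% of all genes, median -0.06). Without control extract 3 only 3 rose, and without control extract 1 or PTU extract 1, 3 and 4 fell. gfap, an intermediate filament that reactive glia make, had levels of 0.34, 0.05 and 0.51 in the PTU extracts, against -0.27, -0.51 and -0.13 in the control extracts. It rose by 0.61 ± 0.09 (adjusted p = 3.6e-05), while the filament gene vim gave -0.04 ± 0.13. Of the other Mueller glia markers, rlbp1a, a retinoid carrier, fell by 0.28 ± 0.08 (adjusted p = 0.00688), and glula, glutamine synthetase, gave -0.11 ± 0.14 (adjusted p = 0.56). The call of rlbp1a was lost without control extract 1 or 3 or PTU extract 3, and when the model was fitted to least-squares levels of the extracts. fabp7b, a fatty acid carrier of glia, fell by 0.86 ± 0.07 (adjusted p = 1.21e-07). Among 21 genes of retinal progenitors and the ciliary marginal zone, the growing rim of the fish retina, 9 fell and 3 rose (42.9% and 14.3%, beside 22.8% and 24.2% of all genes, median -0.21). col15a1b, a collagen used as a marker of this rim, and her15.1, a target of Notch, fell by 1.09 ± 0.10 and 1.02 ± 0.11 (adjusted p = 3.69e-07 and 2.47e-06), and sox3, a gene of neural progenitors, gave -0.08 ± 0.10.

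General synaptic genes fell more often than they rose. Of 40 genes of synaptic transmission 19 fell and 1 rose, with a median of -0.27. gabra6a, a GABA receptor subunit, fell by 1.31 ± 0.13 (adjusted p = 1.13e-06), and snap25b, of the fusion machinery, and homer1b, a scaffold, fell by 0.66 ± 0.08 and 0.53 ± 0.05 (adjusted p = 8.32e-06 and 1.46e-06). The member that rose was atp1a3b, the neuronal sodium pump, with 1.03 ± 0.11 (adjusted p = 1.63e-06), and 2 rose without control extract 2. Of 17 voltage-gated ion channel genes 5 fell and none rose (29.4% and 0%, beside 22.8% and 24.2% of all genes, median -0.14). The channel-interacting proteins kcnip3b and kcnip3a led with -0.79 ± 0.09 and -0.69 ± 0.09 (adjusted p = 3.26e-06 and 2.76e-05).

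**Figure D3:**
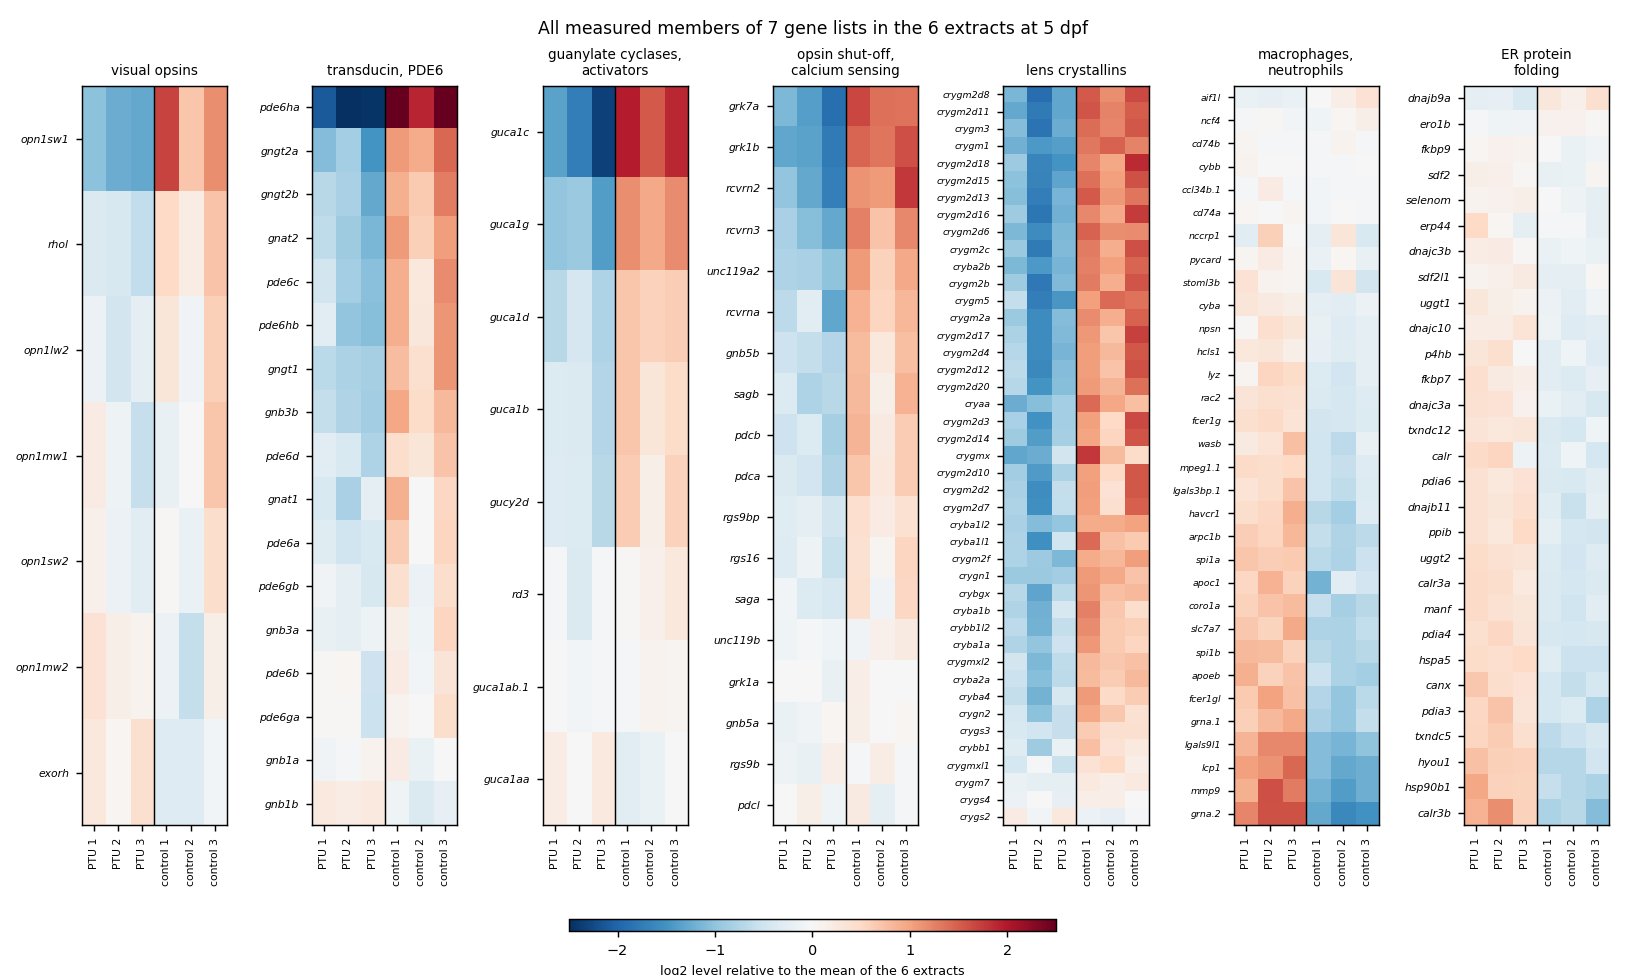
Levels of all measured members of 7 gene lists (1 row a gene, ordered by fold change) in the 3 PTU extracts (left of the black line) and the 3 control extracts (right) of 5 dpf, in colour on the log2 scale relative to the mean of the 6 extracts, with the colours saturated at 2.5 in either direction. Crystallins, apart from the last rows, are blue in every PTU extract and red in every control extract, whereas the opsins do not move together.

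Thyroid hormone genes themselves changed by less than the limit of 0.75. Of 13 measured, 4 rose and 4 fell (30.8% each, beside 24.2% and 22.8% of all genes), with a median of 0.11, and 2 rose without PTU extract 1. The receptor gene thraa had levels of -0.35, -0.17 and -0.57 in the PTU extracts, against 0.49, 0.27 and 0.34 in the control extracts. It fell by 0.74 ± 0.10 (adjusted p = 1.72e-05) with no overlap. thrb, the receptor needed in zebrafish for red cones, had levels of -0.32, -0.21 and -0.27 in the PTU extracts, against 0.35, 0.03 and 0.41 in the control extracts. It fell by 0.55 ± 0.09 (adjusted p = 0.0001), with control extract 2 closest to the PTU extracts. Of the deiodinases, which activate or inactivate the hormone, dio1 fell by 0.35 ± 0.06 (adjusted p = 0.000336), and dio2, the main activating enzyme, rose by 0.30 ± 0.05 (adjusted p = 0.00029). The repressor bcl6aa fell by 0.47 ± 0.11 (adjusted p = 0.00285). The other members that rose were klf13 (0.22 ± 0.05), the receptor partner rxrgb (0.28 ± 0.08) and slc16a10, a transporter of the hormone in mammals (0.31 ± 0.11; adjusted p = 0.00362, 0.0106 and 0.0278). The call was lost for bcl6aa without control extract 1, for rxrgb without control extract 2 or PTU extract 1, and for slc16a10 without control extract 1 or 3 or PTU extract 1 or 3. klf13, rxrgb and slc16a10 also lost their calls when the model was fitted to least-squares levels of the extracts. klf9, a gene that responds to the hormone in many vertebrates, gave 0.31 ± 0.17 (adjusted p = 0.139). rxrga, the thyroid transcription factor nkx2.1, the corepressor ncor1 and the transporter slco1c1 gave values between 0.00 ± 0.07 and 0.12 ± 0.08 with no call. Members other than the receptors, the deiodinases and rxrga were chosen after their values were seen.

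Clock genes fell for the most part. Of 37 measured, 23 fell and 3 rose, with a median of -0.37. According to the methods, larvae were sampled in the morning, 1 after another, over at most 3 h. The order of the groups in that time is not given, and the part of sampling time in these values was not tested. nfil3-6, a repressor of light- and clock-driven genes, had levels of -0.75, -0.96 and -1.27 in the PTU extracts, against 0.98, 0.86 and 1.15 in the control extracts. It fell by 1.92 ± 0.15 (adjusted p = 8.65e-08) with no overlap. per1b, a period gene of the negative limb, had levels of -0.34, -0.75 and -1.22 in the PTU extracts, against 1.07, 0.44 and 0.79 in the control extracts, and fell by 1.53 ± 0.16 (adjusted p = 1.79e-06). nr1d2b, a repressor of the REV-ERB type, fell by 1.01 ± 0.11 (adjusted p = 2.2e-06), and rorcb, an activator at the same sites, gave 0.01 ± 0.13. The members that rose were aanat1 and aanat2, which encode the enzymes of melatonin synthesis in retina and pineal organ, and nfil3. aanat1 had levels of 0.99, 0.75 and 0.99 in the PTU extracts, against -0.87, -1.21 and -0.67 in the control extracts, a rise of 1.83 ± 0.08 (adjusted p = 5.2e-10). aanat2 and nfil3, chosen after their values were seen, rose by 0.48 ± 0.08 and 0.45 ± 0.09 (adjusted p = 0.000141 and 0.000948).

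Genes of protein folding and of the response to stress in the endoplasmic reticulum rose. Of 29 folding genes of this compartment 24 rose and 1 fell, with a median of 0.59. hyou1, a chaperone of the compartment, had levels of 0.73, 0.60 and 0.57 in the PTU extracts, against -0.71, -0.71 and -0.48 in the control extracts. It rose by 1.24 ± 0.10 (adjusted p = 9.73e-08). hspa5, the main chaperone of the compartment, canx, a lectin chaperone, and the disulfide isomerases pdia4 and txndc5 rose by 0.88 ± 0.09, 0.99 ± 0.08, 0.82 ± 0.06 and 1.06 ± 0.07 (adjusted p = 1.2e-06, 8.18e-08, 4.23e-08 and 4.08e-08). dnajb9a, a cochaperone, was the only member that fell (-0.53 ± 0.08, adjusted p = 5.3e-05), and like hspa5 it was chosen after its value was seen. Of 38 genes of translocation, degradation and stress sensing 18 rose and 3 fell (median 0.19), and 10 rose without PTU extract 1. xbp1, a transcription factor of the unfolded protein response, rose by 1.40 ± 0.10, and eif2ak3, the sensor kinase PERK, by 1.08 ± 0.08 (adjusted p = 3.62e-08 and 7.94e-08).

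Genes of the response to shortage of amino acids rose as well. Of 35 genes of this response and of tRNA synthetases, 27 rose and 2 fell, with a median of 0.54. Without any 1 of control extracts 1 and 3 and PTU extracts 1 to 3, 1 fell. atf3, a stress-induced transcription factor, had levels of 2.01, 1.45 and 2.22 in the PTU extracts, against -1.96, -2.13 and -1.59 in the control extracts. It rose by 3.81 ± 0.12 (adjusted p = 1.73e-11). cebpb, another stress-induced factor, had levels of 1.31, 1.01 and 1.50 in the PTU extracts, against -1.35, -0.95 and -1.52 in the control extracts, and rose by 2.58 ± 0.13 (adjusted p = 1.95e-09). qars1, a tRNA synthetase, rose by 1.04 ± 0.06 (adjusted p = 3.41e-09), and psph, an enzyme of serine synthesis, gave 0.00 ± 0.06.

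In the cytosol and mitochondria the chaperones rose in part. Of 43 cytosolic chaperones and heat shock genes 22 rose and 4 fell (median 0.24), and 12 rose without PTU extract 1, with a median of 0.14. The fall counted 2 genes without control extract 1 or 3 or any 1 PTU extract of 5 dpf, and without control extract 1 or PTU extract 2 of 8 dpf. hspa4a and cct3, a subunit of the ring chaperone that folds tubulin and actin, rose by 0.85 ± 0.10 and 0.78 ± 0.11 (adjusted p = 8.86e-06 and 3.15e-05), and hsc70 fell by 1.05 ± 0.15 (adjusted p = 3.28e-05). Among 19 mitochondrial chaperones and proteases 8 rose and 3 fell (42.1% and 15.8%, beside 24.2% and 22.8% of all genes, median 0.15). The import chaperone timm10 was at 0.99 ± 0.08 and the protease lonp1 at 0.86 ± 0.10 (adjusted p = 2.58e-07 and 7.75e-06).

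The proteasome and the lysosome rose as well. Of 51 proteasome genes 37 rose and 1 fell, with a median of 0.37, and none fell without any 1 of control extracts 1 and 3 and PTU extracts 2 and 3. psmb10, a catalytic subunit of the immune form, had levels of 0.39, 0.33 and 0.44 in the PTU extracts, against -0.39, -0.45 and -0.33 in the control extracts. It rose by 0.77 ± 0.05 (adjusted p = 2.54e-08), and the extracts of each group lay close together. psmd2, a subunit of the regulatory particle, rose by 0.96 ± 0.08 (adjusted p = 1.33e-07). Of 50 lysosomal genes 27 rose and 3 fell (median 0.33), and 1 fell without control extract 1 or PTU extract 1. The cathepsins ctss2.1, ctsc and ctsba rose by 1.96 ± 0.13, 1.26 ± 0.07 and 1.20 ± 0.07 (adjusted p = 2.11e-08, 3.41e-09 and 3.87e-09). Autophagy and ubiquitin genes were mixed, as 11 of 28 rose and 6 fell (39.3% and 21.4%, beside 24.2% and 22.8% of all genes, median 0.00). The conjugating enzyme ube2l3b gave 0.62 ± 0.08 and the autophagosome protein wipi1 -0.58 ± 0.06 (adjusted p = 1.09e-05 and 2.55e-06).

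Genes known from injured and regenerating fish tissue were among the largest rises. Of 50 such genes 29 rose and 3 fell, with a median of 0.36, and 17 of the rises passed 0.75. socs3a, an inhibitor of cytokine signals, had levels of 1.53, 1.25 and 1.61 in the PTU extracts, against -1.70, -1.16 and -1.54 in the control extracts. It rose by 2.94 ± 0.14 (adjusted p = 7.06e-10), and its paralogue socs3b rose by 1.95 ± 0.08 (adjusted p = 1.77e-10). sox11b, a transcription factor of immature and regenerating neurons, had levels of 1.43, 1.15 and 1.12 in the PTU extracts, against -1.36, -1.26 and -1.09 in the control extracts, and rose by 2.49 ± 0.10 (adjusted p = 2.77e-10). jun, an immediate response factor, rose by 2.17 ± 0.09, the vault protein mvp by 2.45 ± 0.12 and the annexin anxa2a by 1.88 ± 0.16 (adjusted p = 4.09e-10, 1.69e-09 and 2.52e-07). atf3 and cebpb belong to this list too. Of 12 matrix metalloproteinases and their inhibitors, 8 rose and none fell (median 0.67). mmp9, a gelatinase, had levels of 0.89, 1.61 and 1.30 in the PTU extracts, against -1.19, -1.39 and -1.22 in the control extracts, and rose by 2.49 ± 0.13 (adjusted p = 2.47e-09). mmp13a, a collagenase, was highest in PTU extract 2, at 1.92, beside 0.62 and 0.92 in PTU extracts 1 and 3, against -1.02, -1.36 and -1.09 in the control extracts. It rose by 2.21 ± 0.20 (adjusted p = 5.45e-07). The largest rise of all, 5.05 ± 0.27 (adjusted p = 2.47e-09), was that of jac9, a jacalin family gene with levels of 3.04, 1.58 and 2.71 in the PTU extracts, against -2.84, -2.20 and -2.29 in the control extracts. This family has close copies that its probe may not tell apart.

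Immune cell genes rose in number and size. Of 32 genes of macrophages, microglia and neutrophils 25 rose and none fell, with a median of 0.91. All 3 PTU extracts lay above all 3 control extracts for 24 genes and below them for 1, beside 26.8% and 25.2% of all genes. Fitted to least-squares levels of the extracts, 1 member fell. lcp1, an actin-bundling protein of leukocytes, had levels of 1.02, 1.13 and 1.44 in the PTU extracts, against -1.08, -1.28 and -1.22 in the control extracts. It rose by 2.35 ± 0.10 (adjusted p = 2.73e-10). spi1b, the transcription factor of the myeloid lineage, had levels of 0.82, 0.80 and 0.57 in the PTU extracts, against -0.70, -0.80 and -0.70 in the control extracts, and rose by 1.45 ± 0.09 (adjusted p = 1.25e-08). mpeg1.1, a pore-forming protein of macrophages, rose by 0.92 ± 0.09, lyz, a lysozyme of neutrophils and macrophages, by 0.66 ± 0.09, and coro1a, a leukocyte actin regulator, by 1.37 ± 0.07 (adjusted p = 7.11e-07, 4.07e-05 and 1.58e-09). By contrast cd74b, which assists antigen presentation, and ccl34b.1, a chemokine of microglia, gave 0.01 ± 0.09 and 0.08 ± 0.08 with overlapping groups. spi1b, mpeg1.1 and lyz were chosen as markers of these cells, and mmp9 is a member of this list as well.

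Secreted immune mediators rose in the same direction. Of 23 inflammatory mediators and chemokines 17 rose and none fell, with a median of 0.41. ccl34a.4 and cxcl18b, which encode chemokines, rose by 2.19 ± 0.10 and 1.78 ± 0.09 (adjusted p = 6.57e-10 and 2.47e-09). irf1b, an interferon regulatory factor, and il34, a ligand that macrophages and microglia depend on, rose by 1.47 ± 0.11 and 1.34 ± 0.07 (adjusted p = 4.85e-08 and 1.94e-09). Of 9 complement and coagulation genes 5 rose and 3 fell (55.6% and 33.3%, beside 24.2% and 22.8% of all genes, median 0.39), and 1 fell without control extract 3. c7b, a late component of complement, had levels of 1.58, 1.13 and 1.63 in the PTU extracts, against -1.29, -1.77 and -1.29 in the control extracts, and rose by 2.88 ± 0.09 (adjusted p = 1.73e-11). Among 15 genes of antigen presentation and the interferon response 6 rose and none fell (median 0.10), with irf9 at 1.18 ± 0.09 and isg15 at 0.80 ± 0.09 (adjusted p = 6.07e-08 and 3.75e-06).

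Genes of cell proliferation rose by small amounts. Of 49 DNA replication genes 30 rose and 1 fell (median 0.29), and none fell without control extract 1 or PTU extract 3. Of 43 genes of mitosis and chromosome segregation 26 rose and none fell (median 0.24). mcm6, a helicase subunit, had levels of 0.53, 0.10 and 0.39 in the PTU extracts, against -0.31, -0.43 and -0.28 in the control extracts, and rose by 0.68 ± 0.08 (adjusted p = 6.97e-06). Its PTU extract 2 lay nearest to the control extracts. smc4, of the condensin complex, and ccnb1, a mitotic cyclin, rose by 0.65 ± 0.07 and 0.53 ± 0.08, and top2a, a topoisomerase, by 0.48 ± 0.07 (adjusted p = 2.98e-06, 4.79e-05 and 3.94e-05). None of the mitosis genes passed 0.75. Of 53 genes of chromatin and DNA methylation 21 rose and 7 fell (39.6% and 13.2%, beside 24.2% and 22.8% of all genes, median 0.09). Without PTU extract 1, 3 fell. smarca5, a remodelling enzyme, and dnmt1, which maintains DNA methylation, rose by 1.12 ± 0.07 and 0.51 ± 0.05 (adjusted p = 1.38e-08 and 9.34e-07). Among 32 genes of the p53 response and apoptosis 5 rose and 7 fell (15.6% and 21.9%, beside 24.2% and 22.8% of all genes, median 0.03). Without control extract 2 of 8 dpf 8 rose, and the apoptosis effector baxa gave 0.73 ± 0.07 (adjusted p = 1.11e-06).

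Of 79 genes of ribosome biogenesis, the building of ribosomes in the nucleolus, 48 rose and 5 fell (60.8% and 6.33%, beside 24.2% and 22.8% of all genes, median 0.25), and without PTU extract 1, 31 rose and 3 fell, and without control extract 1, 3 fell. fbl, which methylates ribosomal RNA, had levels of 0.68, 0.50 and 0.49 in the PTU extracts, against -0.40, -0.67 and -0.60 in the control extracts. It rose by 1.13 ± 0.08 (adjusted p = 2.6e-08). ftsj3, another RNA methyltransferase, and npm1a, a nucleolar chaperone, rose by 1.29 ± 0.09 and 0.72 ± 0.05 (adjusted p = 5.97e-08 and 9.11e-08). Of 78 cytosolic ribosomal protein genes 21 fell and 3 rose (26.9% and 3.85%, beside 22.8% and 24.2% of all genes, median -0.12), with rpl22 at -0.48 ± 0.09 (adjusted p = 0.000441). Of these, 13, 12, 8 and 12 fell without control extract 2, control extract 3, PTU extract 1 and PTU extract 3. Over all genes 1677, 1615, 1325 and 1608 fell in these settings, beside 1922 with all extracts. No ribosomal protein gene rose without control extract 1 or 3 or PTU extract 1 or 3, and 1 rose without control extract 1 of 8 dpf. Of 67 translation factors 23 rose and 14 fell (34.3% and 20.9%, beside 24.2% and 22.8% of all genes, median 0.09). Without PTU extract 1, 14 rose, and without control extracts 1 and 2, 7 and 8 fell. eef1a1a, an elongation factor, fell by 1.50 ± 0.12 (adjusted p = 1.15e-07). Of 78 genes of splicing and RNA binding 40 rose and 8 fell (median 0.20), with ddx5 at 1.06 ± 0.07 and hnrnpabb at 0.93 ± 0.09 (adjusted p = 2.07e-08 and 1.1e-06), and 4, 1 and 5 fell without control extract 3, PTU extract 1 and PTU extract 3.

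Genes of energy metabolism were called in both directions. Of 79 genes of the mitochondrial respiratory chain 18 fell and 11 rose (22.8% and 13.9%, beside 22.8% and 24.2% of all genes, median -0.13), and 8, 9, 9 and 8 fell without control extract 1, control extract 3, PTU extract 1 and PTU extract 3, with 7 that rose without PTU extract 1. cox4i2, an isoform of a cytochrome oxidase subunit, was the only member past 0.75. It had levels of -0.90, -0.89 and -0.92 in the PTU extracts, against 1.01, 0.69 and 1.01 in the control extracts, and fell by 1.80 ± 0.12 (adjusted p = 2.54e-08). Of 33 genes of the citric acid cycle and mitochondrial energy carriers 7 fell and 4 rose (21.2% and 12.1%, beside 22.8% and 24.2% of all genes, median -0.05). Of these, 4 fell without control extract 1, and 2 rose without control extract 3 or PTU extract 1. ckmt2b, a mitochondrial creatine kinase, and pdha1b, of pyruvate dehydrogenase, fell by 1.71 ± 0.10 and 1.43 ± 0.13 (adjusted p = 8.01e-09 and 4.63e-07), while ckba, a cytosolic creatine kinase, rose by 0.93 ± 0.11 (adjusted p = 8.64e-06). Glycolysis genes gave 7 of 41 that rose and 11 that fell (17.1% and 26.8%, beside 24.2% and 22.8% of all genes, median -0.08). Without PTU extract 1, 4 rose, and without PTU extract 2, 7 fell. tpi1a, a glycolytic isomerase, fell by 0.76 ± 0.12 (adjusted p = 0.000112).

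Lipid, purine and redox genes held large changes in both directions. Of 41 fatty acid genes 10 rose and 14 fell (24.4% and 34.1%, beside 24.2% and 22.8% of all genes, median 0.07), and 6 rose without PTU extract 1. fabp1a, a fatty acid-binding protein, had levels of -0.97, -0.91 and -1.40 in the PTU extracts, against 1.48, 0.95 and 0.85 in the control extracts, and fell by 2.19 ± 0.15 (adjusted p = 2.58e-08). fads2, a desaturase for long polyunsaturated fatty acids, and pparaa, a receptor that drives fatty acid oxidation, fell by 1.06 ± 0.07 and 0.92 ± 0.08 (adjusted p = 1.48e-08 and 3.69e-07). fabp4a, another fatty acid-binding protein, rose by 1.84 ± 0.11 (adjusted p = 1.25e-08). Of 31 purine genes 11 fell and 6 rose (35.5% and 19.4%, beside 22.8% and 24.2% of all genes, median -0.04). The adenosine deaminase ada gave -1.26 ± 0.10 (adjusted p = 1.1e-07). Of 58 redox and glutathione genes 17 rose and 23 fell (29.3% and 39.7%, beside 24.2% and 22.8% of all genes, median -0.09). Without PTU extract 1, 9 rose. txnb, a thioredoxin, had levels of 1.18, 1.17 and 0.96 in the PTU extracts, against -0.93, -1.22 and -1.16 in the control extracts. It rose by 2.20 ± 0.11 (adjusted p = 2.07e-09), and gpx4b, a lipid hydroperoxide peroxidase, rose by 1.71 ± 0.14 (adjusted p = 1.85e-07), while sod2, the mitochondrial superoxide dismutase, fell by 1.15 ± 0.11 (adjusted p = 9.42e-07). Of 14 xenobiotic genes 4 rose and 5 fell (28.6% and 35.7%, beside 24.2% and 22.8% of all genes, median -0.13), with cyp1a at -0.83 ± 0.10 (adjusted p = 9.07e-06). Without control extract 1 or PTU extract 1, 2 rose and 3 fell.

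Lists of tissues next to the eye separated single extracts rather than the groups. The mean of 55 muscle genes was 0.18, 0.13 and 0.04 in the PTU extracts, against -0.10, 0.52 and -0.77 in the control extracts. Control extract 2 was the highest and control extract 3 the lowest of all 6. Of these genes 12 rose and 4 fell (21.8% and 7.27%, beside 24.2% and 22.8% of all genes, median 0.25). But 31 rose without control extract 2, 7, 6, 6 and 7 rose without control extract 1, control extract 3, PTU extract 1 and PTU extract 3, and 8 fell without control extract 3. The muscle marker mylpfa, a myosin light chain, had levels of 0.30, 0.22 and 0.06 in the PTU extracts, against -0.14, 0.94 and -1.37 in the control extracts (0.41 ± 0.27, adjusted p = 0.24), and it passed without control extract 2. Of the other muscle markers, acta1b rose by 0.46 ± 0.16 (adjusted p = 0.0245) and tnnt3a gave 0.00 ± 0.09 (adjusted p = 0.999). tcap and mybpc1, genes of the sarcomere, departed from the pattern of the list mean, with groups that did not overlap. tcap rose by 1.47 ± 0.08 and mybpc1 fell by 1.82 ± 0.14 (adjusted p = 2.86e-09 and 9.93e-08). The part of attached tissue in the results above was not tested.

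**Figure D4:**
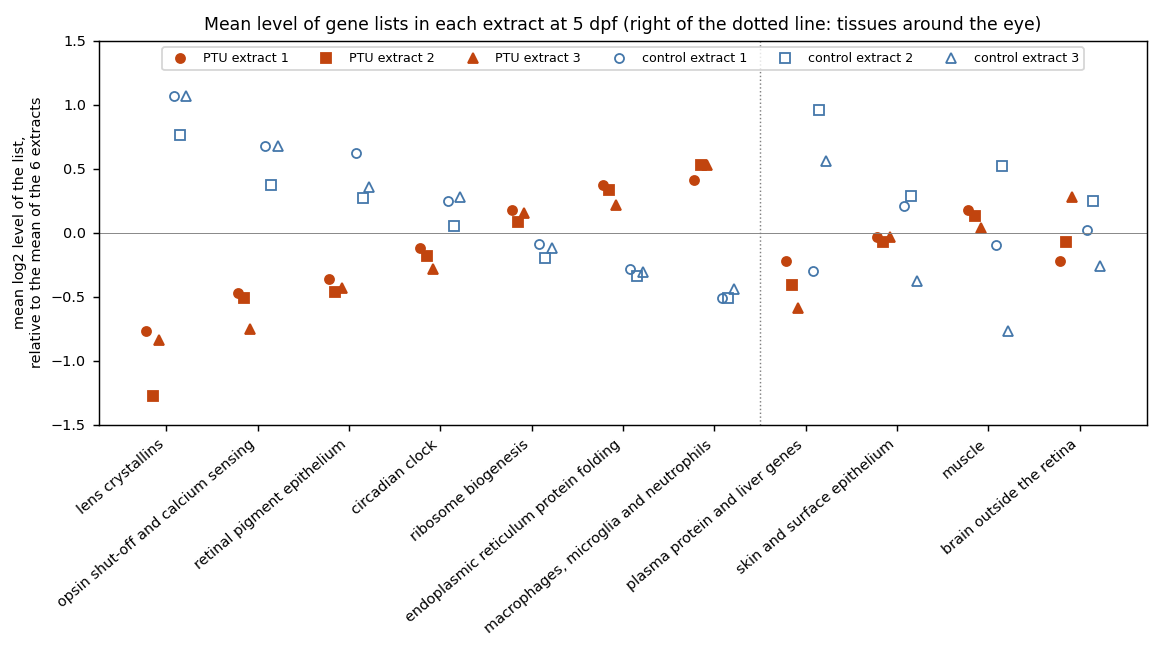
Mean level of 11 gene lists (x axis) in each extract of 5 dpf, on the log2 scale relative to the mean of the 6 extracts, with PTU extracts filled on the left and control extracts open on the right of each position. The crystallin means are -1.28 to -0.77 in the PTU extracts and 0.76 to 1.07 in the control extracts, and the 4 tissues around the eye right of the dotted line overlap between the groups, with the muscle mean between -0.77 and 0.52 in the control extracts.

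Skin, plasma and blood genes varied among the control extracts too. Over 45 skin genes the mean was -0.03, -0.07 and -0.03 in the PTU extracts, against 0.21, 0.29 and -0.38 in the control extracts. Of the skin genes 9 rose and 15 fell (20% and 33.3%, beside 24.2% and 22.8% of all genes, median -0.01). Of these, 4 and 5 rose without control extract 3 and PTU extract 1, and 8, 8, 9 and 8 fell without control extract 1, control extract 2, PTU extract 1 and PTU extract 2. The keratin krt5 fell by 0.91 ± 0.13 and the cadherin cdh1 rose by 1.77 ± 0.14 (adjusted p = 4.19e-05 and 1.81e-07), while the markers krt4 and epcam gave -0.31 ± 0.16 and 0.12 ± 0.14 (adjusted p = 0.12 and 0.531), and krt4 passed without control extract 3. krt5 was a skin marker too, and the keratin gene cyt1, the fourth, fell by 0.76 ± 0.22 (adjusted p = 0.0123). The call of cyt1 was lost without control extract 1 or 2 or PTU extract 1 or 2, and when the model was fitted to least-squares levels of the extracts. Over 26 plasma protein and liver genes the mean was -0.22, -0.41 and -0.59 in the PTU extracts, against -0.30, 0.96 and 0.56 in the control extracts, so control extract 1 lay within the PTU extracts. Of these genes 16 fell and 3 rose (median -0.79), and 5 rose without PTU extract 1 of 8 dpf. The liver marker fabp10a showed the same split, with -0.39, -1.31 and -2.09 in the PTU extracts, against -1.12, 2.69 and 2.21 in the control extracts (-2.24 ± 0.55, adjusted p = 0.00357). That call was lost when the model was fitted to least-squares levels of the extracts. The other liver marker, apoa2, fell by 1.91 ± 0.41 (adjusted p = 0.00146). In contrast ambp, a plasma protein precursor, had levels of -1.01, -1.02 and -1.34 in the PTU extracts, against 1.46, 0.83 and 1.08 in the control extracts, and fell by 2.24 ± 0.15 (adjusted p = 2.78e-08). The globin hbae1.1 gave 0.47 ± 0.20 with overlapping groups (adjusted p = 0.0617) and passed without control extract 1. The other globin marker, hbbe1.1, gave 0.11 ± 0.19 (adjusted p = 0.677). mylpfa, acta1b, tnnt3a, krt4, krt5, cyt1, epcam, fabp10a, apoa2, hbae1.1 and hbbe1.1 were chosen as markers of these tissues.

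The coats and the vessels of the eye showed both directions. Of 55 genes of the extracellular matrix of cornea, sclera and vitreous 19 rose and 6 fell (34.5% and 10.9%, beside 24.2% and 22.8% of all genes, median 0.21). Without control extract 1 or 3 or PTU extract 1, 12 rose. kera, a proteoglycan of the cornea, had levels of -0.63, -0.55 and -0.87 in the PTU extracts, against 0.54, 0.63 and 0.88 in the control extracts. It fell by 1.34 ± 0.11 (adjusted p = 1.35e-07), and the collagen col5a3a rose by 1.07 ± 0.09 (adjusted p = 3.8e-07). Of 25 genes of smooth muscle, vessels and blood 5 rose and 5 fell (20% each, beside 24.2% and 22.8% of all genes, median 0.01). Of these, 1 rose without PTU extract 1, and 3 fell without control extract 3, PTU extract 1 or PTU extract 3. acta2, the smooth muscle actin, had levels of -0.01, -1.14 and -1.35 in the PTU extracts, against 0.43, 1.26 and 0.80 in the control extracts, a fall of 1.53 ± 0.23 (adjusted p = 7.51e-05) with PTU extract 1 close to the control extracts. Among 65 genes of signalling pathways of eye development 9 rose and 20 fell (13.8% and 30.8%, beside 24.2% and 22.8% of all genes, median -0.05). The ligand shha fell by 1.12 ± 0.10, hey1, a Notch target, by 0.71 ± 0.07, and the beta-catenin gene ctnnb2 rose by 1.11 ± 0.11 (adjusted p = 2.85e-07, 1.03e-06 and 9e-07). Of 19 genes used as markers of brain outside the retina 1 rose and 4 fell (5.26% and 21.1%, beside 24.2% and 22.8% of all genes, median 0.02). Without control extract 2 of 5 dpf and control extract 2 of 8 dpf, 3 and 2 rose. The hormone precursor pomca was the member that rose, with 0.18, 0.26 and 1.04 in the PTU extracts, against -0.56, -0.48 and -0.45 in the control extracts (1.00 ± 0.14, adjusted p = 2.62e-05), and PTU extract 3 stood apart.

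Transcripts without a gene assigned also changed. Of 3205 such probes, 79 were higher and 129 were lower past both limits, which is 6.49% of them beside 8.85% of all transcripts, and their log2 fold changes reached 4.45 and -3.41. Where a gene had several probes, 17 of 3499 genes (0.486%) had probes called in opposite directions.

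The effect of PTU at the end of exposure was also set against its effect in eyes that had spent 3 days in clean water. The difference of the 2 effects, 8 dpf minus 5 dpf, was positive for 1003 genes (11.9%) and negative for 584 (6.92%) at an adjusted p under 0.05. Leaving out control extract 1 or PTU extract 1 of 5 dpf, or control extract 3 or PTU extract 3 of 8 dpf, left 909, 586, 709 and 846 genes that differed, of 1587 in all. The 5 dpf and 8 dpf effects came from different extracts, and 4 arrays linked them. Crystallins had a median of -2.04 at 5 dpf and -0.83 at 8 dpf, and the difference was positive for 25 and negative for 1 of 43. cryaa fell by 2.13 at 5 dpf and gave 0.36 at 8 dpf, a difference of 2.49 (adjusted p = 2.96e-07). Transducin and PDE6 genes had medians of -0.96 and 0.12, with a positive difference for 12 of 17, while for guca1c, of the guanylate cyclase list, at -3.55 and -2.70, the difference did not pass (adjusted p = 0.0784). The immune cell list had medians of 0.91 at 5 dpf and 1.74 at 8 dpf, with a positive difference for 20 of 32 and a negative one for 2, and cd74b gave 0.01 at 5 dpf and 2.30 at 8 dpf (difference 2.28, adjusted p = 9.74e-08). Ribosome biogenesis had medians of 0.25 and -0.02, and the difference was negative for 39 of 79 genes and positive for none at an adjusted p under 0.05. Proteasome genes had medians of 0.37 and 0.35, with a negative difference for 5 of 51 and a positive one for 1. Clock genes had medians of -0.37 and -0.51, with 7 differences in each direction among 37.

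**Figure D5:**
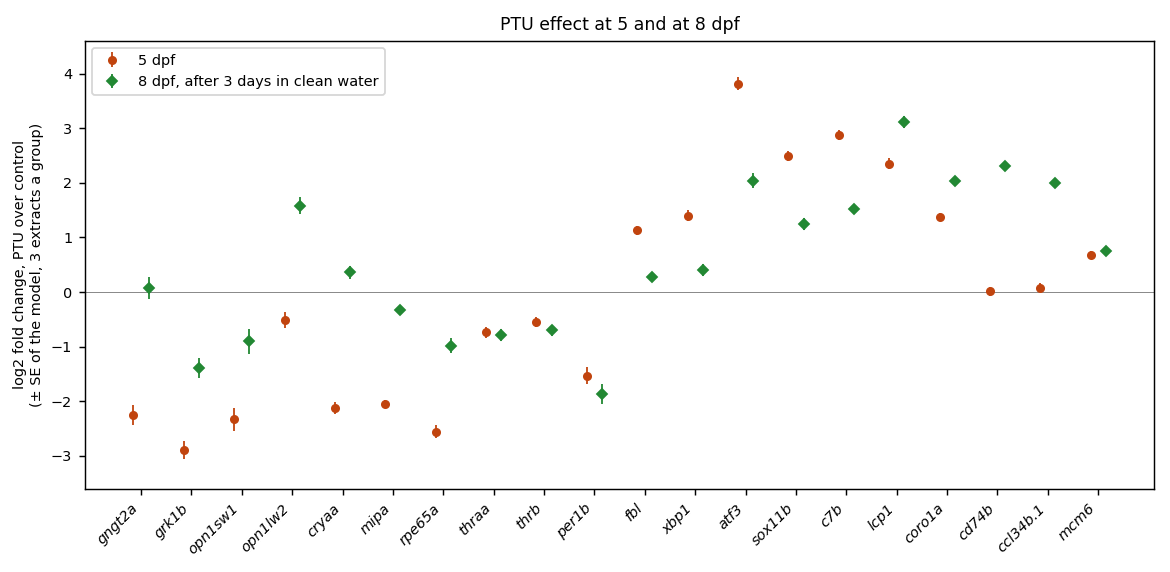
Log2 fold change of PTU over control for 20 selected genes (x axis) at the end of exposure (5 dpf) and after recovery (8 dpf), with bars for the standard error of the model (3 extracts a group). cryaa lies at -2.13 and 0.36, cd74b at 0.01 and 2.30 and atf3 at 3.81 and 2.04.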

How the data were processed

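RNA of zebrafish eyes (12 extracts in 4 groups of 3) was hybridised to 14 Agilent 2-colour arrays. The deposited table holds log2 ratios of Cy5 over Cy3 per probe. According to the methods, the authors removed spots that were dim on all arrays, corrected the background (normexp), normalized by loess within each array and used limma 3.34.4. The table itself states neither base nor direction of its ratios, which were taken from the methods and the labelled dyes.

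Ratios were turned to PTU over control and averaged over the probes of a gene. Linear models were fitted in limma 3.58.1 (R 4.3.3; Python 3.11.15 with matplotlib 3.10.9 for tables and figures) to all 14 arrays, with a coefficient per group, the extract as a random effect with 1 variance ratio for all genes (0.138; 0.0943 for probes), moderated tests (two-sided) and Benjamini-Hochberg adjustment over 8445 genes. Calls required an adjusted p under 0.05. Levels of single extracts are least-squares estimates from the 14 arrays. Each extract pools 10 larvae. The p-values rest on the residual spread over the arrays and on the shared variance ratio. They therefore do not measure how far the extracts of a single gene vary. Scripts were tested on simulated data.

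Members of 61 gene lists, and the lists themselves, were chosen with earlier results of these data known. No test was made of a list. Named genes were drawn from the largest rises and falls among calls without overlap of extracts. They were also drawn from each list, from up to 4 members with the smallest p and the member with the largest p. The measured thyroid hormone receptors and deiodinases were added. Not every gene that these rules pick is named in the text. Cell type markers and genes said to be chosen after their values were seen come in addition. Alternatives covered the dependence of arrays, the arrays used, a dye term, centring, scaling, a replicate block, robust moderation, the choice of probe, the fold limit and leaving out each extract. Single-channel signals were not used, and no genome build or sequence was used.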

Additional observations from a re-analysis of the deposited data

Results flagged for a closer look

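Left out here were acta1b, tnnt3a, hbbe1.1, apoa2, clu, pde6c, lim2.1, gad1b, tfap2a, slc6a9 and slc32a1. Among the other genes named above, 7 had 1 array whose ratio of PTU over control stood apart from the other 5 arrays. Chance alone is expected to mark about 1 in 20 sets of values. The ratios that stood apart were -1.89 for gnat1 (array A), -3.70 for rcvrn2 and -1.90 for kera (array E), -1.66 for zgc:91968 (array F), and 1.23 for prdm1a, 2.17 for gpx4b and 0.43 for glula (array C). None of the 7 changed its call when any 1 extract was left out, and glula had none.

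For 117 of 206 genes named above (again without the genes left out in the last paragraph) the effect of PTU differed between 8 and 5 dpf by the test of the difference itself (limma, adjusted p under 0.05), beside 11.9% of all genes with a positive and 6.92% with a negative difference. Most of these genes were named for their change at 5 dpf, so their number is not a result about them. The differences are given as the log2 fold change at 8 dpf minus that at 5 dpf, so a positive value of a gene that fell at 5 dpf means a smaller fall or a rise at 8 dpf.

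In phototransduction every difference that passed was positive, with 2.76 for pde6ha, 2.32 for gngt2a, 1.84 for gngt2b, 0.80 for gnat2, 1.45 for gnat1, 1.16 for pde6a, 1.50 for grk1b, 1.30 for grk7a, 1.56 for rcvrn2, 0.89 for rcvrn3, 1.03 for saga, 1.09 for guca1g and 1.52 for guca1b. Among the opsins it was 1.43 for opn1sw1, 1.51 for rhol and 2.09 for opn1lw2, and rhol and opn1lw2 were thereby higher in PTU eyes at 8 dpf, with 0.58 and 1.58. In other photoreceptor genes it was 0.53 for prph2b, 0.54 for kcnv2b, 1.12 for rom1a, 0.84 for rx2, 0.42 for foxq2, 1.04 for cplx4c and 0.55 for lrit1a.

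In the lens the difference was 2.49 for cryaa, 1.28 for crygm1, 1.51 for crygm3, 1.40 for cryba1l2, 1.62 for crygn1, -0.50 for crygs4, 1.71 for mipa, 1.27 for lim2.4 and 1.21 for lim2.3. In the retinoid cycle it was 1.58 for rpe65a, 1.74 for rlbp1b, 1.1 for rgrb, 0.99 for rbp3, 1.44 for stra6, 1.65 for rdh5 and -0.54 for rdh8b. Pigment genes gave 1.59 for pnp4a, 0.79 for zgc:91968, 0.83 for trpm1b, 0.88 for dct, 0.41 for pmela and 1.40 for tyrp1b. In the inner retina and at synapses the difference was -1.61 for cabp5a, 0.75 for cabp5b, 0.83 for vsx1, 1.15 for isl2b, 0.97 for rbpms2b, 0.90 for rlbp1a, 0.65 for pou4f1, -0.73 for vim, 1.11 for fabp7b, 1.04 for col15a1b, 1.68 for her15.1, 0.47 for snap25b, -0.65 for atp1a3b and 0.44 for kcnip3b.

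Thyroid and clock genes gave 0.37 for dio1, -0.96 for klf9, 0.66 for nfil3-6, -0.59 for aanat1 and 0.73 for aanat2. In protein folding and degradation the difference was -0.85 for hyou1, -0.55 for hspa5, -0.36 for canx, 0.40 for dnajb9a, -1.0 for xbp1, -0.62 for eif2ak3, -0.33 for qars1, -0.95 for hspa4a, -0.83 for lonp1, -0.42 for psmd2, 0.37 for ctsc and 0.52 for wipi1. Of the injury genes, atf3 gave -1.78, cebpb -1.03, socs3a -1.01, socs3b -0.75, sox11b -1.25 and jun -1.20. The metalloproteinases mmp9 and mmp13a gave -0.71 and -1.32, and jac9, of the jacalin family, gave -1.22. Over all 50 injury genes the difference was positive for 2 and negative for 17. Over the 12 metalloproteinases and inhibitors it was positive for 1 and negative for 4. Immune genes were split, with 0.76 for lcp1, 0.92 for spi1b, 0.66 for coro1a, 2.28 for cd74b and 1.93 for ccl34b.1, beside -0.69 for cxcl18b, -1.36 for c7b and -0.52 for isg15.

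Genes of chromatin, ribosome building and translation gave -0.45 for smarca5, -0.85 for fbl, -1.09 for ftsj3, -0.57 for npm1a, -0.59 for ddx5 and 0.82 for eef1a1a. In metabolism the difference was 1.56 for cox4i2, 0.88 for ckmt2b, 1.30 for pdha1b, -0.78 for ckba, 0.89 for tpi1a, 1.47 for fabp1a, 1.24 for fads2, 0.75 for ada, -0.70 for txnb and 1.08 for sod2. In muscle, matrix, vessel, brain and signalling genes it was -1.18 for tcap, 0.93 for mybpc1, -0.92 for col5a3a, 1.35 for acta2, -1.15 for pomca, 0.50 for shha, 0.68 for hey1 and -0.59 for ctnnb2.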

How the results depend on the processing

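Of the same 206 genes named above, 185 kept their call under all 21 alternatives, 21 had another call under at least 1, and none reversed. Most of them were named for a small p or a large change, so their share does not stand for all genes. Over all genes, 1312 of the 2046 that rose and 1317 of the 1922 that fell were called again without PTU extract 1 of 5 dpf. Leaving out single extracts gave 1317 to 2178 genes that rose, and 586 to 2091 genes whose effect differed between the ages (909 without control extract 1 and 586 without PTU extract 1 of 5 dpf, 709 without control extract 3 and 846 without PTU extract 3 of 8 dpf). With a fold limit of 1 on the log2 scale 144 genes rose and 253 fell, and 338 transcripts were higher and 517 lower. Fitted to least-squares levels of the extracts from the 6 arrays of 5 dpf alone, 1521 genes rose and 1479 fell, of which 1434 and 1430 were shared with the counts above. The main model on the same 6 arrays gave 1895 genes that rose and 1823 that fell.

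Same-numbered PTU and control extracts of 5 dpf deviated together with r of -0.187, 0.135 and -0.0919. Differently numbered ones gave r of -0.113 to 0.252. Some of these pairs shared an array and others did not, so these values do not decide whether the number paired the extracts. With the replicate number as a block 1976 genes rose and 1855 fell, of which 1954 and 1820 were shared.

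With the most variable probe in place of the mean of a gene's probes, list medians became -0.92 for lens fibre genes, 0.22 for thyroid hormone genes, 0.74 for folding and 0.67 for amino acid stress genes, 0.36 for cytosolic chaperones, 0.01 for purine genes, 0.29 for splicing and 0.70 for complement. Leaving out single extracts, medians spanned -0.43 to -0.23 for the retinoid cycle, -0.29 to -0.14 for progenitors, 0.05 to 0.16 for thyroid hormone genes, 0.54 to 0.69 for folding genes, -0.09 to 0.01 for purine genes, -0.06 to 0.02 for cholesterol synthesis, 0.02 to 0.07 for fatty acid genes, -0.16 to -0.10 for ion channels, 0.49 to 0.76 for metalloproteinases, 0.33 to 0.68 for complement, and -0.07 to 0.03 for smooth muscle and vessels. They spanned 0.14 to 0.32 for cytosolic and 0.14 to 0.25 for mitochondrial chaperones, -1.32 to -0.35 for plasma protein genes, -0.01 to 0.53 for muscle, -0.45 to 0.00 for opsins, -0.30 to -0.12 for photoreceptor transcription factors, 0.09 to 0.26 for matrix of cornea and sclera, 0.07 to 0.20 for antigen presentation, -0.17 to -0.08 for the respiratory chain and -0.21 to 0.06 for xenobiotic metabolism. The cause of these shifts was not tested.

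Signal over background was not used here, so the 6 arrays and 3 extracts a group limit the precision. Standard errors rest on 1 ratio of variation between extracts to variation between arrays for all genes, and are too small for a gene whose extracts vary more.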
